A study of Mus musculus with 3 samples.

Results

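The Mef2 family comprises 4 genes of the mouse, Mef2a, Mef2b, Mef2c and Mef2d, and PU.1 occupancy was described at each of them from ChIP-seq peak lists. A peak was counted for a gene where it overlapped the gene's RefSeq span plus 20 kb on each side, on build mm10 (GRCm38). The 4 windows held 31 of 74494 peaks in PU.1 replicate 2, 4 of 6169 peaks in PU.1 replicate 3 and 24 of 49385 intervals in a merged list. All 4 genes were among the 21774 protein-coding genes placed on chromosomes in the RefSeq gene table.

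Both PU.1 libraries came from the i660BM line, pro-B cells of the C57BL/6 mouse strain that hold a PU.1-inducible system and grow in medium with interleukin-7. PU.1 had been induced for 24 h with 70 ng/ml doxycycline, and chromatin was precipitated with the polyclonal rabbit antibody T-21 to mouse PU.1. The study also used an input DNA sample, labelled with no treatment, and uninduced cells, for which no peak list was analysed here, so binding that depends on the induction cannot be told apart from binding that does not. The libraries are called replicate 2 and replicate 3 after their titles, no label ties them to separate cultures, and the label pro-B could not be checked against marker genes because peak lists hold no expression.

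MEF2 proteins are transcription factors with an N-terminal MADS box and MEF2 domain, through which they dimerise and bind A/T-rich sites. In muscle, neurons and lymphocytes they switch between repression, when bound by class IIa histone deacetylases or Cabin1, and activation, when calcium, p38 or ERK5 signalling frees them to recruit coactivators such as p300. In mice, Mef2c is used in B cell development and in the response to the B cell receptor. PU.1, encoded by Spi1, is an ETS-family factor of B cells and myeloid cells that binds purine-rich sites with a GGAA core.

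Every Mef2 gene had PU.1 peaks in replicate 2, and all but Mef2b also had a peak in replicate 3. Mef2a had 7 peaks in replicate 2 and 2 in replicate 3. Mef2b had 4 peaks in replicate 2 and 0 in replicate 3. Mef2c had 12 peaks in replicate 2 and 1 in replicate 3. Mef2d had 8 peaks in replicate 2 and 1 in replicate 3. Each of the 4 replicate 3 peaks lay wholly within a replicate 2 peak and inside a Mef2 gene span. In the whole replicate 3 list, 100% of peaks overlapped a replicate 2 peak. They gave 4 shared regions, a shared region being a union of overlapping peaks (1 bp or more) that holds a peak of each library. With 1 group of 2 libraries no comparison of conditions could be tested, so counts and scores are given as descriptions.

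**Figure D1:**
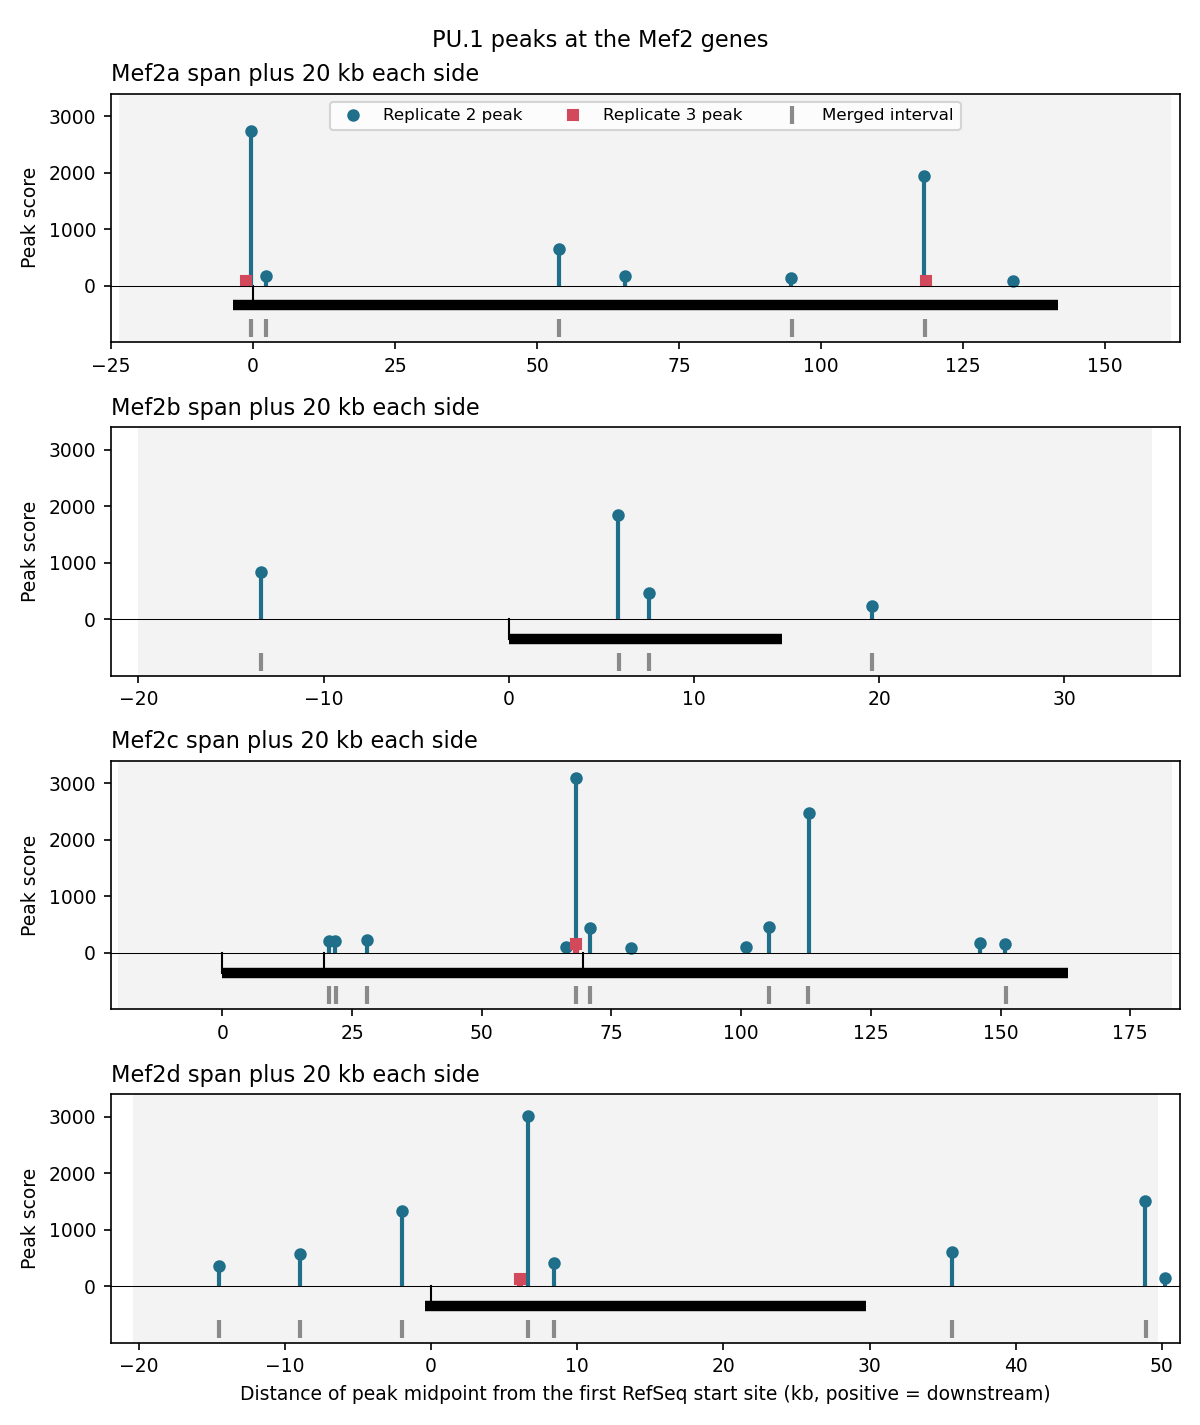
Peak score (vertical axis) of every replicate 2 peak (blue circles) and replicate 3 peak (red squares) against the distance of its midpoint from the first RefSeq start site in kb, one panel for each gene. The grey field is the window, the black bar the gene span, thin black lines the start sites and grey ticks the merged intervals. Mef2b has no replicate 3 peak, and the 2 highest replicate 2 peaks of Mef2c (3100 and 2468) lie deep inside the gene.

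Replicate 2 peaks were common, so the counts need their background. A replicate 2 peak was present in the same kind of window of 84.6% of all protein-coding genes, against 4 of 4 Mef2 genes. For a merged interval the shares were 4 of 4 Mef2 genes and 76.5% of all genes. For a replicate 3 peak they were 3 of 4 Mef2 genes and 24.2% of all genes, and for a shared region 3 of 4 and 24.3%. At least 2 shared regions, as at Mef2a, were present at 5.84% of genes. Windows differed in length, with 185 kb for Mef2a, 54.7 kb for Mef2b, 203 kb for Mef2c and 70.2 kb for Mef2d, against a median of 57.2 kb over all genes. Longer windows collect more peaks, and their part in these shares was not tested. A count at least as high as that of Mef2a was reached by 15.1% of genes, as that of Mef2b by 41.4%, and as that of Mef2d by 10.6%. Of the 2303 genes with at least 8 replicate 2 peaks, a group to which Mef2c and Mef2d belong, 66.3% had a shared region. Of the 2555 genes with exactly 4 replicate 2 peaks, as Mef2b has, 29% had one. Both of these bins were chosen after the counts were seen.

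Set per length of window, the order of the genes changed. Mef2d carried 11.4 replicate 2 peaks per 100 kb, more than 92.8% of protein-coding genes. With the gene span alone or 5 kb on each side, 3 of its 8 peaks were left. No density was computed for those narrower windows. Mef2b carried 7.31 per 100 kb, more than 77.1% of genes. Mef2c carried 5.91 per 100 kb, more than 67.0% of genes, although its count of 12 was reached by 3.21% of genes. Mef2a carried 3.78 per 100 kb, below the median of 4.08 over all genes. Counting all 4 windows together gave 6.04 replicate 2 peaks and 0.779 replicate 3 peaks per 100 kb. Each density rests on a single library, with no error of its own, and differences between neighbours in this order were not tested.

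**Figure D2:**
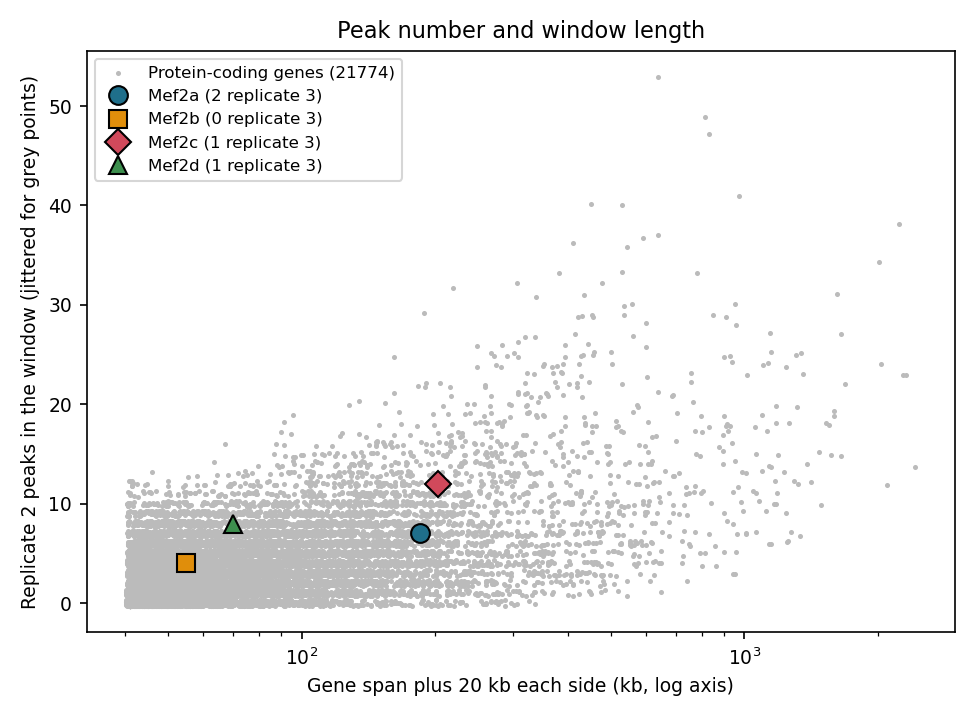
Number of replicate 2 peaks (vertical axis) against window length in kb (log axis) for each of 21774 protein-coding genes (grey points, jittered vertically) and for the 4 Mef2 genes. Mef2d, with 8 peaks in 70.2 kb, stands high for its window length, and Mef2a, with 7 peaks in 185 kb, stands near the middle of the field.

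The score of a peak is the authors' own value from the peak caller MACS and was taken as a p-value on a negative log10 scale multiplied by 10, so that higher is stronger. It depends on the depth of the library and was compared only within a list. Replicate 2 scores at the Mef2 genes ran from 86.1 to 3100 with a median of 405, against a median of 232 over the whole list. Of the 31 peaks, 18 scored above that list median and 6 fell in the highest 10% of the list, which starts at 1662. The Mef2 median depended on the window. It was 315 for the gene span alone, 242 with 5 kb on each side and 405 with 50 kb. Replicate 3 scores ran from 79.0 to 154, with a median of 112 against 136 over that list. The Mef2 peaks were thus spread over the whole range of replicate 2 and lay in the middle and lower part of replicate 3.

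**Figure D3:**
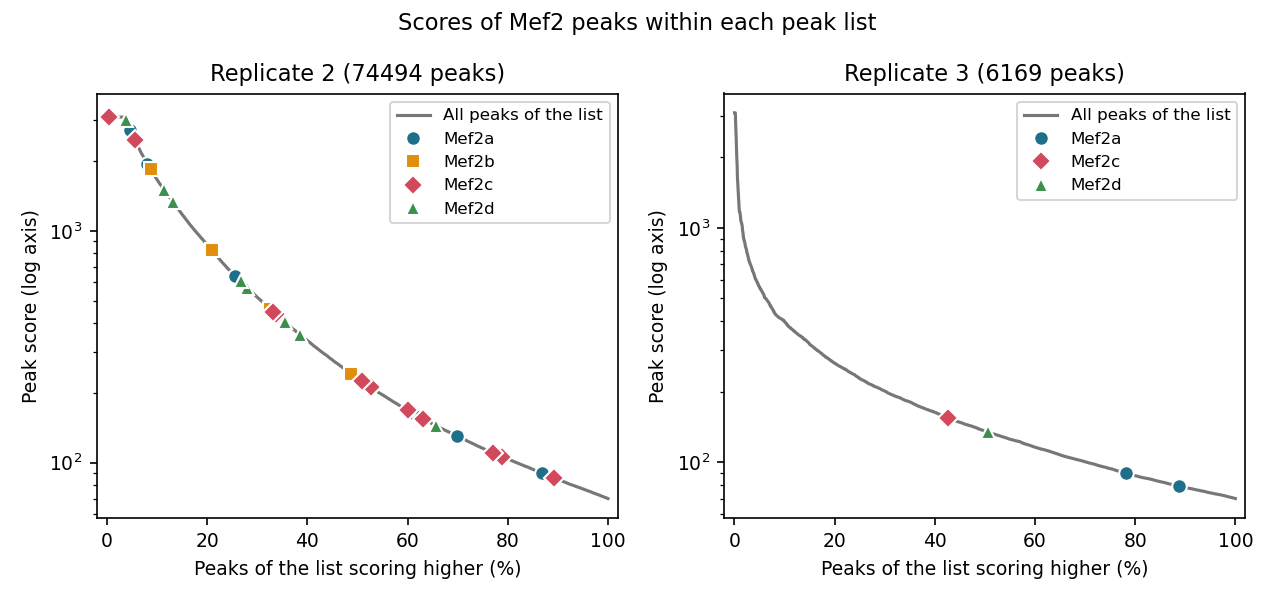
Peak score (log axis) against the share of the list that scores higher, in percent, for all peaks of each replicate (grey line) and for the peaks at each Mef2 gene (coloured symbols). The 4 replicate 3 peaks have 42.7% to 88.8% of their list above them.

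Mef2a (gene ID 17258; chromosome 7, 67231163 to 67376456, minus strand) encodes a MEF2 factor present in many tissues. Its highest replicate 2 peak scored 2737 and covered the listed RefSeq start site (67371785 to 67374678, 2894 bp wide). That start site, at 67372858, lies inside the gene span, which runs on upstream of it to 67376456. A replicate 3 peak scored 79.0 at 67373652 to 67374615, so that it lay in the upstream part of the replicate 2 peak, 794 bp from the start site. The midpoints of these 2 peaks were 902 bp apart, the widest gap among the 4 pairs. A second shared region lay 118 kb downstream of the start site, inside the gene, with a replicate 2 score of 1940 (67253699 to 67255595) and a replicate 3 score of 89.8 (67253915 to 67254727). Both replicate 3 scores were low for their list, in which 88.8% and 78.2% of peaks scored higher. The other 5 replicate 2 peaks scored from 90.2 to 642, and the highest of them lay 53.9 kb downstream of the start site. All 7 lay inside the gene span. The lowest of them, 134 kb from the start site, also came within 20 kb of Lysmd4.

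The promoters printed here are the RefSeq windows of 300 bases (GRCm38.p6) that are covered by a Mef2 peak or stand within 1 kb of one, read in the direction of the gene. Capitals mark GAGGAA, a purine-rich PU.1 core searched on both strands, and the MEF2 consensus site, and the start site follows base 250.
Mef2a, chr7:67372809-67373108, minus strand: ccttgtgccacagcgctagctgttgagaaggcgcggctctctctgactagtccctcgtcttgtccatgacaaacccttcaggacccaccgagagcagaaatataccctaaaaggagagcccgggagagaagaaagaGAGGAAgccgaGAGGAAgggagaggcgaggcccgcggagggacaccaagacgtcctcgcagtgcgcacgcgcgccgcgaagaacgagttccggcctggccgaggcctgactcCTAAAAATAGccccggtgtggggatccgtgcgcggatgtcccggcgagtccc
Mef2d, chr3:88142122-88142421, plus strand: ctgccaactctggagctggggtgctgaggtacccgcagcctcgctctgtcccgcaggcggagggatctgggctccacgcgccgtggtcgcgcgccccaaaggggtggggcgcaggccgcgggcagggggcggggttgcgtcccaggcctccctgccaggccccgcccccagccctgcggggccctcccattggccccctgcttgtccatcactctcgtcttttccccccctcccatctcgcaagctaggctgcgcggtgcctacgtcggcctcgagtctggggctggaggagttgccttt
Mef2c, the second start, chr13:83523406-83523705, plus strand: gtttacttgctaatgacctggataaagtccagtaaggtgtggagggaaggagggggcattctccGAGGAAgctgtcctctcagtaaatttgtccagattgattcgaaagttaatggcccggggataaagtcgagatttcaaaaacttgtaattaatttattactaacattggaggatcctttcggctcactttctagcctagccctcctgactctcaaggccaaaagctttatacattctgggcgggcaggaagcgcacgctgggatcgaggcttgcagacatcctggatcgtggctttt
Mef2c, the third start, chr13:83573357-83573656, plus strand: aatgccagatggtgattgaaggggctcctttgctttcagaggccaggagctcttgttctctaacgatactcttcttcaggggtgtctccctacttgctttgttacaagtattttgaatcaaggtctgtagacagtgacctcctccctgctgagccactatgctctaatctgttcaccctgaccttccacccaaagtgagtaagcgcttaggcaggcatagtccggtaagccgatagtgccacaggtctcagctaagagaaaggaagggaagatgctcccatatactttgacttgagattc

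The Mef2a promoter held GAGGAA at 2 places, starting at -114 and -103 relative to the start site, and the MEF2 site CTAAAAATAG across the start site itself. CTAAAAATAG, searched on both strands, was present in 36 of 32851 RefSeq promoters (0.110%), and any match to the MEF2 consensus was present in 3.19%. GAGGAA was present in 28.3% of promoters and in 3 of the 6 listed for Mef2 genes, those of Mef2a and of the first and second Mef2c starts. The second Mef2c promoter has it at -186 and the first at -122. The motifs do not overlap each other in these windows, and a match is a description of the letters only. The promoters of Mef2a and Mef2d were overlapped by a replicate 2 peak, those of Mef2b and Mef2c were not (2 of 6, against 27.5% of all RefSeq promoters). No listed Mef2 promoter was overlapped by a replicate 3 peak (0 of 6, against 2.23% of all).

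Mef2b (gene ID 17259; chromosome 8, 70152761 to 70167488, plus strand) encodes the most divergent member of the family, which in human lymphoma of germinal centre B cells is a target of mutation. Its highest replicate 2 peak scored 1846 and lay inside the gene, 5.92 kb downstream of the start site (70158136 to 70159226). A second peak inside the gene scored 462 (70159747 to 70160868). Neither had a replicate 3 peak, and the nearest replicate 3 peak to the start site was 151 kb away. The other 2 peaks of the window lay on neighbouring genes. One, scoring 829, lay 12.6 kb upstream of Mef2b overlapping Rfxank, which encodes a subunit of the RFX complex of MHC class II promoters, and Borcs8 (70138579 to 70140138). The other, scoring 242, lay 4.34 kb downstream, overlapping Tmem161a (70171828 to 70172918). RefSeq also lists Gm45929, a gene whose span runs over Borcs8 and Mef2b together, so both inner peaks lie in Gm45929 as well. The upstream peak scoring 829 overlapped Gm45929 too. Nr2c2ap, Ncan and Slc25a42 came within 20 kb of 1 peak of the window each.

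Mef2c (gene ID 17260; chromosome 13, 83504017 to 83667079, plus strand) had the highest scoring peak of the family. It scored 3100 in replicate 2 (83571543 to 83572979), a score that 2431 peaks of that list share and 225 peaks (0.302%) exceed, up to 3233. Replicate 3 had a peak scoring 154 at the same place (83571629 to 83572625), with midpoints 134 bp apart, the closest of the 4 pairs. This region lay 68.2 kb downstream of the first RefSeq start site and its replicate 2 peak ended 628 bp before the third, with the midpoint at -1.35 kb from it. Flanking peaks of replicate 2 scored 106 upstream of it (83569863 to 83570817) and 437 beyond the third start (83574405 to 83575338). Neither flanking peak had a replicate 3 peak.

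The other strong Mef2c peak was seen in replicate 2 alone. It scored 2468 (83616330 to 83617715), placed 113 kb downstream of the first start site inside both Mef2c and the non-coding RNA gene Gm52043. A lower peak in Gm52043 scored 448 (83608795 to 83610138). Near the second start site, 3 peaks scored 211, 211 and 225 between 0.941 and 8.27 kb downstream of it. The first of them began 385 bp after the second start. No peak lay within 20.0 kb of the first start site, from which the nearest replicate 2 peak was 20007 bp away. The remaining 4 Mef2c peaks scored from 86.1 to 168, and 2 of them lay in the non-coding RNA gene Gm52044 near the far end of Mef2c. All 12 peaks lay inside the Mef2c span.

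Mef2d (gene ID 17261; chromosome 3, 88141941 to 88172091, plus strand) encodes a broadly used MEF2 factor whose human counterpart forms fusion genes in B cell precursor leukaemia. Its shared region lay 6.64 kb downstream of the start site, inside the gene, with a replicate 2 score of 3015 (88147880 to 88150146). The replicate 3 peak scored 135 (88147926 to 88148933) and sat in the upstream part of the replicate 2 peak. A further replicate 2 peak scoring 405 began right behind that region (88150180 to 88151322). The start site was covered by a replicate 2 peak of 5007 bp that scored 1335 (88137880 to 88142886) and had no replicate 3 peak. Only 13 peaks of replicate 2 (0.0175%) were at least 5000 bp wide, a limit chosen after this width was seen. Mef2d was the only gene of the family with more peaks outside its span than inside it. Its span is 30.2 kb of a 70.2 kb window, and the part of these lengths in that split was not tested.

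Outside the Mef2d span, 2 upstream peaks scored 357 and 568, at 13.6 and 7.66 kb from it. Both also lay within 20 kb of Iqgap3, a gene of a scaffold protein of the cytoskeleton. Downstream, a peak scoring 607 (88177347 to 88178681) overlapped the non-coding RNA gene 1700113A16Rik. A peak scoring 1504 lay 18.6 kb downstream (88190691 to 88191721). The edge of the window set the last member, a peak scoring 145 that began 19.9 kb from the span, while the next peak, scoring 100.0 at 21.2 kb, was left out. At Mef2b a peak scoring 396, at 20.6 kb upstream, was left out likewise.

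Replicates were compared at the level of single peaks. Of the 31 replicate 2 peaks, 4 had a replicate 3 peak (12.9%, exact Clopper-Pearson 95% interval 3.63 to 29.8, counting error only), against 8.24% of the whole replicate 2 list. Of the 6 peaks in the highest 10% by score, 4 had one (66.7%, 22.3 to 95.7), against 72.8% in the whole list. The 2 without one were the inner Mef2b peak at 1846 and the Mef2c peak at 2468. None of the 25 lower peaks had one. Such lower pairs were few in the whole list too, where 5421 of the 6139 replicate 2 peaks with a replicate 3 peak were in the highest 10%. Replicate 3 peaks covered from 33.3% to 69.4% of the width of their replicate 2 partners. Because the replicate 3 list is far shorter, the lack of a replicate 3 peak does not show that PU.1 was absent there.

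The merged list held intervals over 25 of the 31 replicate 2 peaks (80.6%, 62.5 to 92.5), against 66.5% of the whole replicate 2 list. Of the 10 Mef2 peaks scoring under 170, 4 were in it (40%, 12.2 to 73.8), against 19% of all such peaks in replicate 2. That interval includes 19%, and the limit of 170 was chosen after the scores were seen. The 6 peaks left outside scored from 86.1 to 168, with 2 in Mef2a and 4 in Mef2c. Peaks inside scored from 130 to 3100. All 4 replicate 3 peaks lay in merged intervals. The same share for the whole replicate 3 list is not given here, so this count has no background beside it.

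The rule for genes most like the member with the most replicate 3 peaks, Mef2a, took distance over log2 counts of peaks in both libraries, log2 merged intervals and log2 window length. The closest were Pacs1, with 7 replicate 2 peaks, 2 replicate 3 peaks and 5 merged intervals in 179 kb, and Dcdc2a, with 7, 2 and 5 in 195 kb. The next was Cdcp3, with 6, 2 and 5 in 172 kb. This likeness rests on 2 libraries and on counts alone.

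Mef2c stands in a gene-poor stretch, where the next protein-coding genes are Cetn3 at 1707 kb upstream and Tmem161b at 555 kb downstream. Assigning each peak to its nearest protein-coding gene gave Mef2c 45 replicate 2 peaks, a number reached by 0.202% of genes. It gave 3 replicate 3 peaks, reached by 1.89%. A gene with distant neighbours is assigned peaks from a longer stretch. These counts were not set per length, and the part of that length in them was not tested. Of the 45 replicate 2 peaks, 27 lay upstream of the gene, 12 inside it and 6 downstream. The highest replicate 3 score of the stretch, 546, lay 462 kb upstream (83041165 to 83042295), over a replicate 2 peak at 3100 (83041376 to 83042389). In replicate 3, 5.24% of peaks scored higher than this one, and 42.7% scored higher than the peak inside Mef2c. A second upstream pair lay 95.9 kb from the gene, with scores of 1920 in replicate 2 (83406320 to 83408169) and 91.4 in replicate 3 (83407138 to 83408074). Further replicate 2 peaks at 1714, 1317 and 1085 stood 372, 424 and 556 kb upstream and had no replicate 3 peak. Downstream the highest peak scored 1586, at 276 kb. Nearness is not evidence that any of these peaks acts on Mef2c, and the peaks singled out here were chosen after their scores were seen.

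**Figure D4:**
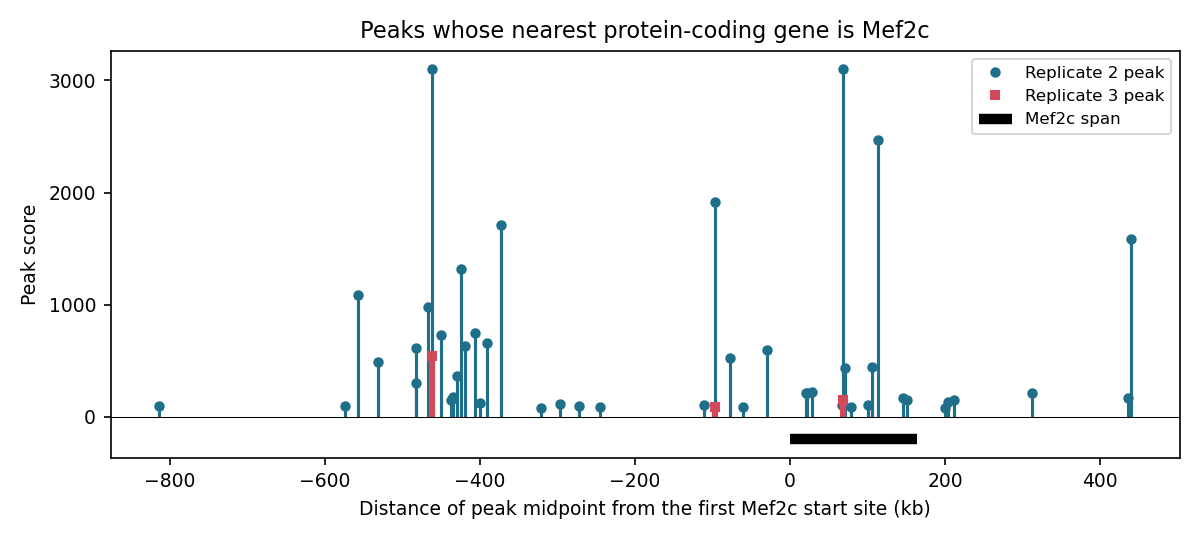
Peak score against the distance of the peak midpoint from the first Mef2c start site in kb, for the 45 replicate 2 peaks (blue) and 3 replicate 3 peaks (red) whose nearest protein-coding gene is Mef2c. The black bar is the gene span. The highest replicate 3 peak (546) stands in the upstream group, not inside the gene.

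Genes that act with MEF2 were read the same way, in 7 lists with 43 genes, all matched in RefSeq. A shared region was present in the window of 21 of 43 genes (48.8%), against 24.3% of all protein-coding genes. The median window of these genes was 97.1 kb, against 57.2 kb over all genes, and the part of window length in this share was not tested. The median density was 6.04 replicate 2 peaks per 100 kb, against 4.08 over all genes. Ckm, the muscle creatine kinase gene, was the only list gene without a replicate 2 peak.

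Corepressors of MEF2 had a shared region at 4 of 5 genes (80%), against 24.3% of all protein-coding genes. Their median window was 158 kb and their median count was 10 replicate 2 peaks, and of all genes with at least 8 such peaks 66.3% had a shared region. Cabin1, a calcineurin-binding inhibitor of MEF2, had one inside the gene with 3100 in replicate 2 and 481 in replicate 3. Hdac9, a class IIa deacetylase gene with a window of 910 kb, had 3 shared regions, the best with 3100 and 419. Hdac4 had one with 1733 and 117. Hdac5 had one with 2713 and 98.3. Hdac7 had 15 replicate 2 peaks, up to 1683, and 0 in replicate 3. Coactivators had one at 4 of 6 genes (66.7%), with a median window of 126 kb and a median of 7 replicate 2 peaks. For Carm1, an arginine methyltransferase gene, the best scored 3100 and 298 but lay 16.8 kb outside the span. For Maml1 the scores were 3100 and 167 inside the gene. For Ep300, which encodes p300, they were 3100 and 113 at 16.9 kb outside the span. For Ncoa2 they were 2065 and 102.

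Kinases upstream of MEF2 had a shared region at 4 of 13 genes (30.8%), near the 24.3% of all genes, with a median window of 99.3 kb. Mapk7, which encodes ERK5, had 2, the better by replicate 3 score at 3039 in replicate 2 and 239 in replicate 3, at 2.85 kb outside the span. Camk2d, a calcium/calmodulin-dependent kinase gene, had 2, the better at 2590 and 214. Camk1 had one at 2799 and 180, at 2.77 kb outside the span. Camk2g had one at 2203 and 79.7, lying across an end of the span. Genes of calcineurin, the phosphatase that frees MEF2 from its repressors, and its regulator had one at 3 of 5 (60%), with a median window of 112 kb. Ppp3cc, a catalytic subunit gene, had the highest replicate 3 score of all 7 lists, 922, with 3100 in replicate 2. Ppp3ca had one at 3064 and 121. Rcan1, a calcineurin inhibitor gene, had one at 1459 and 71.4.

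Lymphoid target genes of MEF2 had a shared region at 2 of 4 (50%), namely the immediate early genes Jun and Nr4a1, with a median window of 52.0 kb. For Jun the scores were 1735 and 80.4 inside the gene. For Nr4a1 the better region scored 1805 and 82.1 at 0.519 kb outside the span. Bcl6, a repressor of germinal centre B cells, had 10 replicate 2 peaks, up to 2449, and 0 in replicate 3. Muscle target genes had one at 2 of 6 (33.3%), also near the 24.3% of all genes, with a median window of 49.4 kb. For Slc2a4, a glucose transporter gene, the scores were 3100 and 348 at 10.5 kb outside the span. For Myog, a myogenic factor gene, they were 3087 and 143 at 8.48 kb outside it. Srf, which encodes a MADS-box relative of MEF2, had 2 replicate 2 peaks, up to 3100, and no shared region, while 2 of its 3 listed coactivator genes had one. The best of Mrtfa scored 3100 in replicate 2 and 352 in replicate 3, inside the gene. That of Mrtfb scored 2880 and 123, at 6.09 kb outside the span. The median window of Srf and its partners was 169 kb.

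**Figure D5:**
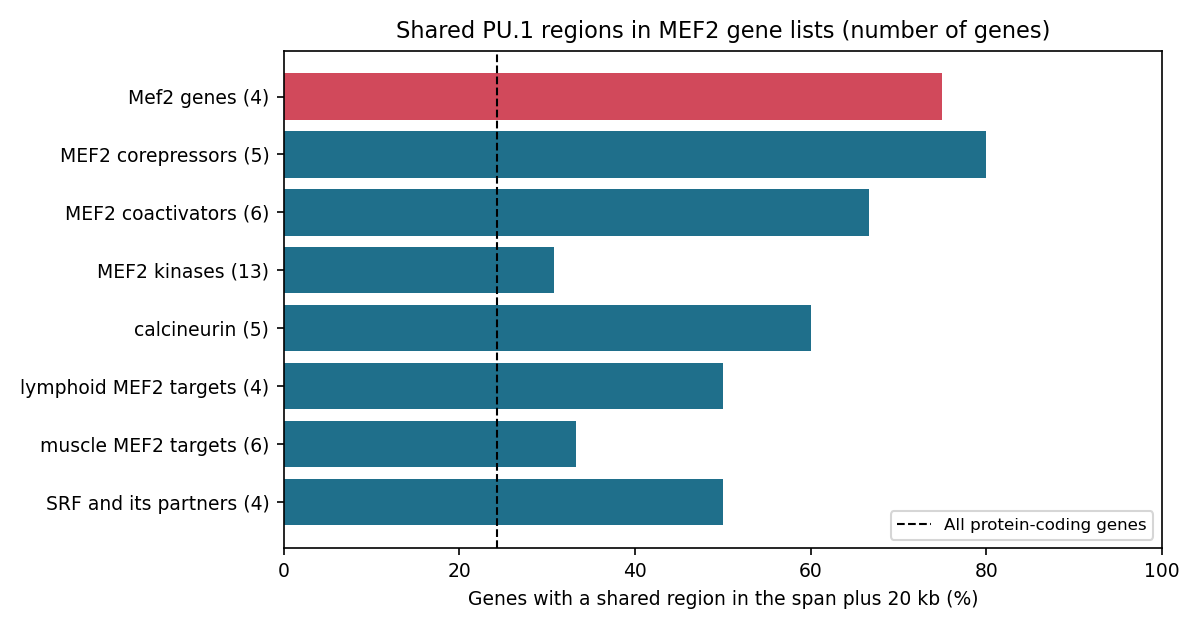
Share of genes with a shared region in the span plus 20 kb, in percent, for the 4 Mef2 genes (red) and for each of 7 lists of genes that act with MEF2 (blue), with the number of genes in parentheses. The dashed line marks all protein-coding genes (24.3%), and the kinase list (30.8%) stands closest to it.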

How the data were processed

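The submitters' processing notes name Trim Galore, Bowtie and MACS 1.4.1, with build mm10. The deposited list of each PU.1 library holds start, end and a score per peak, called per sample, with no normalization between libraries. The control of the peak calls and the making of the merged list are not stated in these sources. The deposited merged list has a score of 0 throughout, so its positions alone were used. Read depth is unknown.

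Positions are printed 1-based. Genes, strands and 300-base promoters came from RefSeq tables of GRCm38.p6, which give spans without exons, so exons and introns were not separated. The 113 protein-coding rows on scaffolds or patches were left out. Overlaps were computed with Python 3.11.15, pandas 2.3.3 and scipy 1.17.1 and checked on simulated peaks. Exact Clopper-Pearson intervals at the 95% level are printed beside some shares of the Mef2 replicate 2 peaks, and other shares carry none. These intervals treat peaks as independent, although the peaks lie at 4 genes in a single library. The text names all 4 members, up to 4 genes per list with a shared region by replicate 3 score, protein-coding genes within 20 kb of a member's peak, and the 3 genes most like Mef2a. Other genes (Hdac7, Bcl6, Srf, Ckm, Cetn3 and Tmem161b) were named after their values were seen. The members and lists were chosen with earlier results of these data known. Alternatives were other windows, scores from 100 upwards, reciprocal overlap of 50%, nearest-gene assignment, the merged list and either library alone.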

Additional observations from a re-analysis of the deposited data

How the results depend on the processing

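The 31 replicate 2 peaks became 47 with 50 kb around each gene and 66 by nearest protein-coding gene, of which 45 fell to Mef2c. With scores of at least 100, 2 of the 4 replicate 3 peaks and 2 of the 4 shared regions were left. Those were at Mef2c and Mef2d, because both replicate 3 peaks of Mef2a score under 100. In the whole replicate 3 list, 29.7% of peaks score under 100. Reciprocal overlap of 50% left 1 shared region, that of Mef2c. There the replicate 3 peak covered 69.4% of the width of its replicate 2 partner, against 33.3% to 44.5% in the other pairs. No share over the whole list is given for this rule. The merged list gave 24 intervals in place of 4 shared regions and 42 list genes in place of 21. Of all protein-coding genes, 76.5% had a merged interval in the window and 24.3% a shared region. Leaving out either library gave 4 to 31 regions, 3 to 4 members with a peak and 21 to 42 list genes. The higher value came without replicate 3 in each case. A replicate 3 peak was present at 24.2% of all protein-coding genes and a replicate 2 peak at 84.6%. The remaining totals, and 53 of 72 values for single genes, moved by no more than 1.5 times, and 19 moved further. The 53 include values at Mef2b that were 0 and stayed 0. They also include the counts without replicate 2. Those could not differ from the shared regions, because each Mef2 replicate 3 peak lay within its own replicate 2 peak. Among the 19 was the Mef2d count in replicate 2, which fell from 8 to 3 with the gene span alone or 5 kb on each side. No paired analysis was possible because there is 1 group of PU.1 libraries. Read depth is unknown, so a peak missing from replicate 3 cannot be told apart from one below its detection limit, and the replicate 2 peaks tied at 3100 cannot be ranked among themselves.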

Other observations

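Several Mef2 peaks came as close neighbours that the peak caller kept apart. At Mef2c the peaks ending at 83525153 and beginning at 83525162 (211 each) lay next to each other, and the merged list kept 2 intervals there. At Mef2d the strongest peak (3015) ended at 88150146 and the next (405) began at 88150180. The 2 widest Mef2 peaks, 5007 bp at Mef2d and 2894 bp at Mef2a, each covered a RefSeq start site of their own Mef2 gene, and the other 29 were from 527 to 2267 bp wide.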
